A study of Mus musculus with 2 samples.

Results

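The small nucleolar RNAs (snoRNAs) described here are the 141 genes whose symbol starts with Snord or Snora and a number, out of 55536 gene identifiers in the tables. Of these, 99 carry a Snord symbol and are box C/D snoRNAs, and 42 carry a Snora symbol and are box H/ACA snoRNAs. The 141 genes share 138 symbols, because Snora16a, Snora43 and Snord80 each name 2 genes. The annotation gives 140 of them the snoRNA biotype, and Snord43 is listed as a miRNA gene. A further 1367 genes of the snoRNA biotype have other kinds of name and are not members. The tissue is the adrenal gland, taken at 36 days of age from male mice of the F1 hybrid B6CASTF1/J (C57BL/6J by CAST/EiJ), and its total RNA was sequenced. The series holds 1 group of 2 biological replicates, each made from 300 ng of RNA with ERCC spike-in RNA, with no treatment, no genetic change and no second condition. The descriptions of the tissue samples name a different male for each library, whereas both library descriptions name the same male. The labels name a column kit for animal tissue and a directional library kit, and whether RNAs of this size were kept through extraction and library preparation is not given in the sources used here.

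snoRNAs are short RNAs of the nucleolus that base-pair with ribosomal RNA and guide its chemical modification. Box C/D snoRNAs guide 2′-O-methylation by the methyltransferase Fbl, together with Nop56, Nop58 and Snu13. Box H/ACA snoRNAs guide pseudouridylation by Dkc1, together with Nhp2, Nop10 and Gar1. A few members act instead in the cutting of the precursor of ribosomal RNA. Most mammalian snoRNAs lie in introns of host genes and are released from the spliced intron by exonucleases. The Snora73 RNAs (U17) and Snord60 (U60) have a described link to cholesterol trafficking, and the adrenal cortex is a tissue that turns cholesterol into steroids.

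The sequences below are members with many counts (Snora74a, the third in counts, is not shown), the rRNA-cleavage RNA Snord118 and the cholesterol-linked Snord60. They are from the GENCODE M21 transcripts, 5′ to 3′ on the transcript strand, with positions on mm10. For box H/ACA members the capitals mark the letters ACA that stand 3 bases before the 3′ end. The first 2 are the Snora73 pair of the Snhg3 locus, Snora73b (chr4:132352322-132352526, minus strand) and Snora73a (chr4:132352775-132352979, minus strand). Snora23 (chr7:110046364-110046547, plus strand) and Snora44 (chr4:132309941-132310069, plus strand) follow, and Snora44 has no capitals because its annotated end does not carry ACA there.
Snora73b: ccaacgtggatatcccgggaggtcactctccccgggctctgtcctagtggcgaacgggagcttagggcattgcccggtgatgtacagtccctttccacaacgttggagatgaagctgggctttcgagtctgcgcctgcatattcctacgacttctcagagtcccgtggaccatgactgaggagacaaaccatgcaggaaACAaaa
Snora73a: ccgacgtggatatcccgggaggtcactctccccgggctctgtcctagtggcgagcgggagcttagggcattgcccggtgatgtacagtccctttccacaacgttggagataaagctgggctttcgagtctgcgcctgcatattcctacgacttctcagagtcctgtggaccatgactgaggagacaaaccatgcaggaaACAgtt
Snora23: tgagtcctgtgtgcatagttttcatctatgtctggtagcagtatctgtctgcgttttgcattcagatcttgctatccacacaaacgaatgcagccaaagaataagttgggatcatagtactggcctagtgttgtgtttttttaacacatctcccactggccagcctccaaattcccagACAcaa
Snora44: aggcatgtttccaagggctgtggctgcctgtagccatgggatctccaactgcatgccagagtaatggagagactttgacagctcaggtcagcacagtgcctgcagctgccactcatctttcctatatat

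For box C/D members the capitals mark the first TGATGA (the core of box C) and the last CTGA (box D). They are Snord17 (chr2:144265979-144266216, minus strand), Snord15b (chr7:99479563-99479707, minus strand), Snord15a (chr7:99482785-99482932, minus strand), Snord22 (chr19:8725866-8725991, plus strand), Snord118 (chr11:69073427-69073561, plus strand) and Snord60 (chr17:24528476-24528553, plus strand). Snord22 holds no TGATGA, so its box D alone is in capitals.
Snord17: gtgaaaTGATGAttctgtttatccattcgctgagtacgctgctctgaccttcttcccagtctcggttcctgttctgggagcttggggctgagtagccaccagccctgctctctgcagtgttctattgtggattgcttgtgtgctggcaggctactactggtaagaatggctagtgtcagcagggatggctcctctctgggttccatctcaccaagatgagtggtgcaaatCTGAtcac
Snord15b: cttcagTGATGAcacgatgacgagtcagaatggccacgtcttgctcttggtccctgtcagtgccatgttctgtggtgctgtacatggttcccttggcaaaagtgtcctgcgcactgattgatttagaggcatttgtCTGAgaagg
Snord15a: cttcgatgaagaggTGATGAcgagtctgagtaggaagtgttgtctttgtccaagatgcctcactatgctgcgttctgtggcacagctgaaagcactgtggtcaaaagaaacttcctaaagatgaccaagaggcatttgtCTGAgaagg
Snord22: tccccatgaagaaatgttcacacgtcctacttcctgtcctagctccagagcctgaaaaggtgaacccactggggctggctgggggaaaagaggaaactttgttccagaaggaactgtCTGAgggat
Snord118: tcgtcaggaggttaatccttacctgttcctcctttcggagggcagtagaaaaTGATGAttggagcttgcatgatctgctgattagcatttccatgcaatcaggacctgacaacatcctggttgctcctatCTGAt
Snord60: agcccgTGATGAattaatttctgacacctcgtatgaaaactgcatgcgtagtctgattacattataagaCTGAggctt

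Snora73b and Snora73a are both 205 bases long and 96.6% identical. Counted from the 5′ end, with the base of Snora73b first, the 7 differences are A3G, A54G, G111A, C164T, A203G, A204T and A205T. Snord15a and Snord15b share their last 21 bases, box D included. Across all members, TGATGA started within the first 20 bases in 70 of 99 C/D members (70.7%) and in 0 of 42 H/ACA members. CTGA lay within the last 15 bases in 92 of 99 C/D members (92.9%) and in 3 of 42 H/ACA members. ACA with exactly 3 bases after it ended 35 of 42 H/ACA members (83.3%) and 0 of 99 C/D members. Only the transcript strand was searched, and TGATGA and CTGA overlap where the letters read CTGATGA. In 6257 other annotated transcripts of 64 to 238 bases that are not snoRNAs, the same 3 shares were 0.751%, 6.23% and 1.95%. These shares describe the annotated sequences, whose symbols already name the class, and are no result of the 2 libraries.

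Replicate 1 had 35813366 expected counts in its gene table and replicate 2 had 30628771, where an expected count is a read count in which reads that match several transcripts are shared out. All 7 adrenal cortex markers and all 5 medulla markers examined reached 1 TPM in both libraries (TPM is a level per length, with an equal total in both libraries). The libraries differed in tissue content. The 6 pancreas markers summed to 0.21 TPM in replicate 1 and 6606 TPM in replicate 2, and the 6 liver markers to 13.9 and 107 TPM. The cortex markers summed to 14718 and 8187 TPM, the medulla markers to 1427 and 1671, the 4 adipocyte markers to 882 and 801 and the 3 neuron markers to 14.2 and 13.6. In replicate 1 32.5% of all TPM fell on 7SL RNA (Rn7s1, Rn7s2), and in replicate 2 48.9%, which bears on the TPM of all other genes.

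The members together took few of the counts. They held 9503 expected counts in replicate 1, or 0.0268% of the counts on genes (exact binomial 95% interval 0.0262 to 0.0273%), and 8470 in replicate 2, or 0.0281% (0.0275 to 0.0287%). Such intervals take in counting error alone, because the reads carry no molecular identifiers and several can stem from the same molecule. Of the 141 members, 43 had a count above 0 in at least 1 library and 34 in both, 31 reached 1 TPM in both, and 23 had at least 10 counts in both. A small set of members carried nearly all of this. Snora73b, Snora73a and Snora74a held 85.4% of the H/ACA counts in replicate 1 and 89.5% in replicate 2, and Snord17, Snord15b and Snord15a held 89.4% and 87.2% of the C/D counts.

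Among the members, the box H/ACA class was counted more widely than the box C/D class. In both libraries a count above 0 was present for 29 of 42 H/ACA members (69.0%) and 5 of 99 C/D members (5.05%), and 26 and 5 members reached 1 TPM. Summed over the class, H/ACA members held 6642 and 6012 counts in replicates 1 and 2, and C/D members 2861 and 2458. Among the members, the H/ACA sum was thus 2.38 ± 0.0883 times the C/D sum in counts and 1.65 ± 0.0270 times in TPM (mean ± SD, n = 2). The 1367 other genes of the snoRNA biotype, among them the U3 genes (Rnu3b), held 26674.7 and 24082.5 counts and are in neither sum. The ratio therefore depends on the choice of members by symbol and does not compare all C/D with all H/ACA RNA. The median member level was 7.06 and 3.35 TPM for H/ACA and 0 TPM in both libraries for C/D. These are descriptions of genes, which are not replicates, and carry no test.

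The difference in breadth went along with length. C/D members had a median annotated length of 84 bases (range 64 to 238) and H/ACA members of 132.5 bases (121 to 205). In the gene tables every one of the 28583 entries shorter than 100 bases, members or not, had an effective length of 0 and a count of 0 in both libraries. For all 32326 single-transcript entries of 100 bases or more the effective length was the length minus 99 bases. Of the C/D members, 87 of 99 are shorter than 100 bases, and no H/ACA member is. The 371 other snoRNA genes shorter than 100 bases were also all at 0. A 0 for a member under 100 bases in these tables is therefore no measure of its level.

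**Figure D1:**
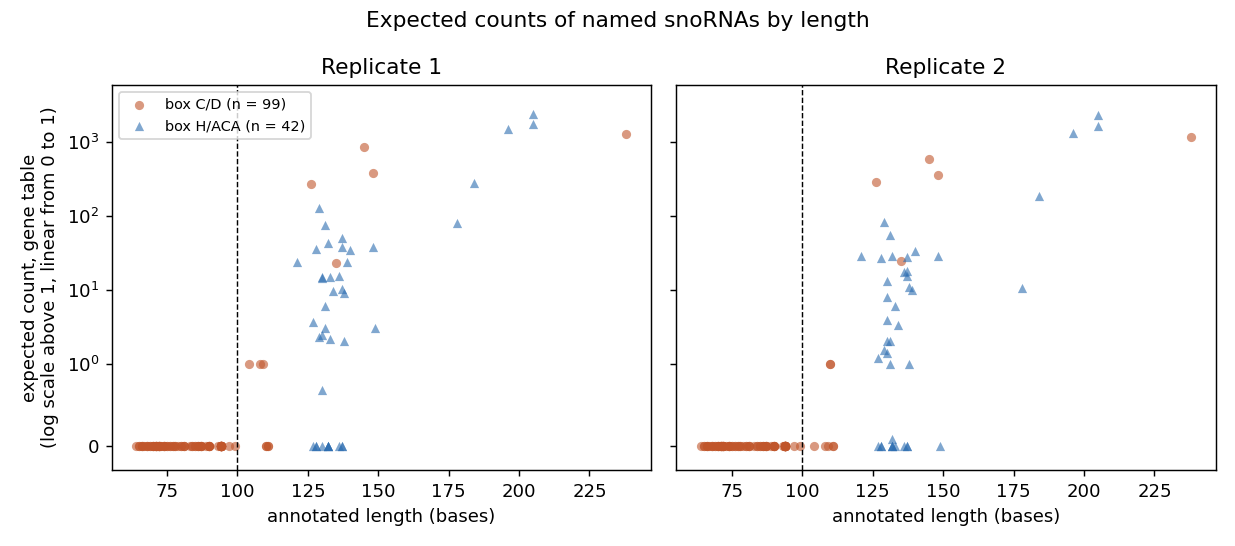
Expected count in the gene table (vertical axis, log scale above 1 and linear from 0 to 1) against annotated length in bases for each of the 141 members, with box C/D as circles and box H/ACA as triangles and 1 panel per replicate. Every member left of the dashed line at 100 bases lies at 0, and these are 87 C/D members and no H/ACA member.

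Among the 54 members of 100 bases or more, 5 of 12 C/D members and 29 of 42 H/ACA members had counts in both libraries (41.7% and 69.0%). The 7 C/D members from 100 to under 120 bases summed to 3 counts in replicate 1 and to 2 in replicate 2, and none had a count in both. There the effective lengths are 5 to 12 bases, so the floor of 3 counts stands for 7.08 to 17.0 TPM in replicate 1. From 120 to under 140 bases both C/D members and 22 of 34 H/ACA members were counted in both libraries. From 140 bases upward all 3 C/D members and 7 of 8 H/ACA members were. By comparison, 69 of the 996 other snoRNA genes of 100 bases or more (6.93%) had counts in both libraries. The 9 H/ACA members at 0 in both libraries, among them Snora19, Snora20, Snora41 and both Snora16a genes, are 127 to 137 bases long. For them 3 counts stand for 2.23 to 3.03 TPM in replicate 1 and 2.03 to 2.76 TPM in replicate 2, so a lower level was not detectable at this depth. For 3 of the 9 the 0 also depends on how reads were shared out. The Snora43 gene at 0 lies within the other Snora43 gene, which has 24 and 10 counts, and the deposited posterior SD of its count is 3.92 in replicate 1. The Snora16a genes overlap each other and lie in transcripts of Snhg12 that sum to 104 and 60.9 expected counts.

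The members with a role in rRNA cleavage were led by Snora73b and Snora73a, the U17 RNAs needed for processing of the small-subunit rRNA. Snora73b had 2390 and 2368 expected counts in replicates 1 and 2, or 638 and 575 TPM. Snora73a had 1776 and 1666 counts, or 474 and 405 TPM. They ranked first and second of all members in counts and in TPM. Their counts are not whole numbers, as reads are shared out between near-identical copies, and the deposited posterior SD was between 11.64 and 12.04 counts for each in each library, far below the difference between the pair. Snord22 (U22), a C/D RNA that also acts in small-subunit rRNA processing, had 276 and 288 counts, or 290 and 275 TPM. Snord118 (U8), which acts in large-subunit rRNA processing, had 23 and 25 counts, or 18.1 and 17.9 TPM. Snord13 (U13) had 1 count in replicate 1 and 0 in replicate 2, where 1 count stands for 5.66 TPM in replicate 1. The Snord14 RNAs (U14), namely Snord14a, Snord14c, Snord14d and Snord14e, are 86 to 90 bases long and stand at 0 in the gene tables. The U3 RNA is annotated under Rnu3b symbols and belongs to the other snoRNA genes.

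Among the modification guides and other members, Snora74a (U19) had 1507 and 1349 counts, or 440 and 358 TPM. Snord17 had 1309 and 1191 counts, or 267 and 221 TPM, and was the C/D member with the most counts. The Snord15 pair of the ribosomal protein gene Rps3 followed, with 869 and 593 counts (535 and 332 TPM) for Snord15b and 381 and 359 counts (220 and 189 TPM) for Snord15a. Snord15b was the C/D member with the highest mean level, at 433 ± 143 TPM (mean ± SD, n = 2). The members that follow had lower counts than all of these. Snora23 had 283 and 186 counts, or 94.3 and 56.4 TPM, and Snora44 had 127 and 83.9 counts, or 120 and 72.0 TPM. Snora68 had 76.5 and 56.1 counts, and Snora21, Snora17, Snora57 and Snora7a had 34.4 to 51.0 counts in replicate 1 and 28.0 to 33.5 in replicate 2. Every other H/ACA member but Snora81 lay below 39 counts in both libraries.

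The order of levels depended on how length was counted, though the leading members did not. In mean TPM the first 7 were Snora73b, Snora73a, Snord15b, Snora74a, Snord22, Snord17 and Snord15a. By CPM per annotated kilobase, without the subtraction of 99 bases, they were Snora73b, Snora73a, Snora74a, Snord17, Snord15b, Snord15a and Snord22. The same 7 members led both orders, but on the second scale the summed H/ACA level was 2.15 times that of C/D, against 1.65 times in TPM. In both ratios the C/D members under 100 bases stand at 0, and snoRNA genes with other names, such as U3, are left out. Snora73b, at 607 ± 44.4 TPM, was above Snora73a, at 440 ± 49.2, in both libraries, and Snora73a above Snora74a, at 399 ± 57.6. Snord15b, at 433 ± 143, was above both of the latter in replicate 1 and below both in replicate 2.

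**Figure D2:**
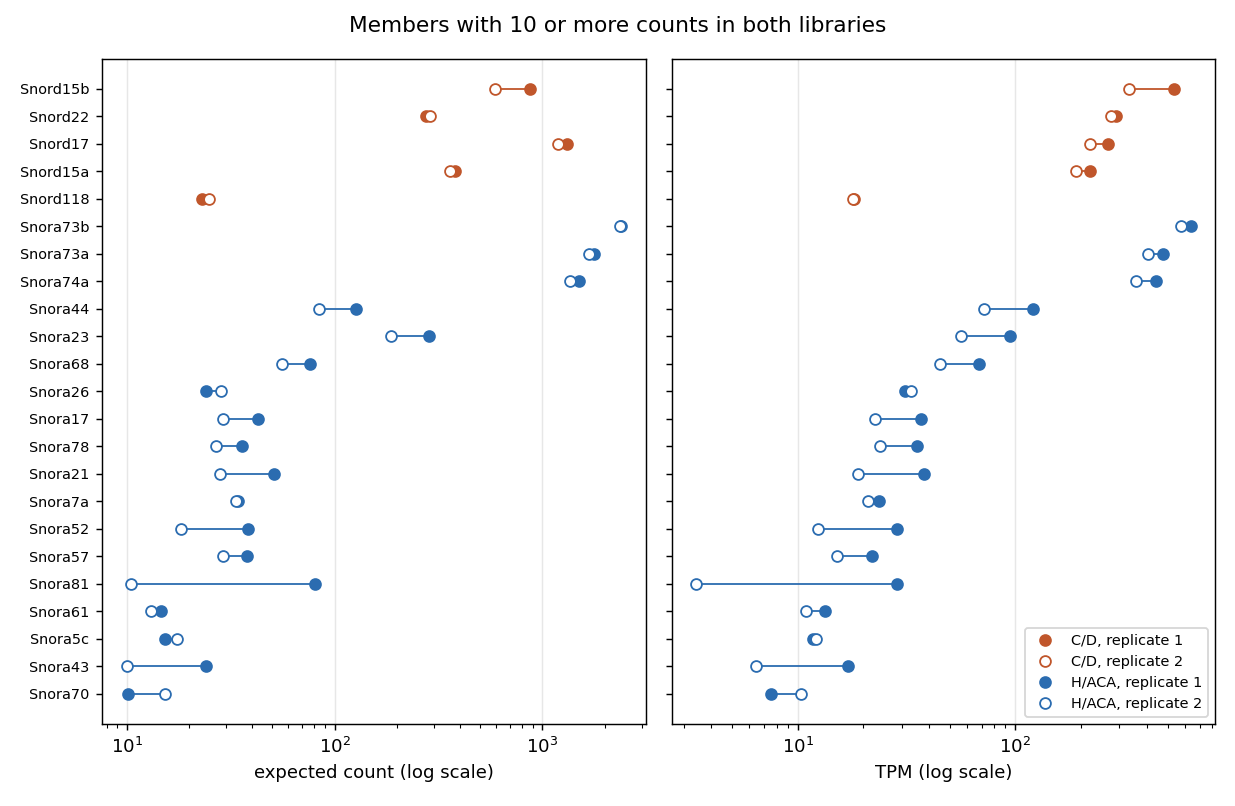
Expected counts (left) and TPM (right), both on log axes, of the 23 members with 10 or more counts in both libraries, C/D above and H/ACA below, each sorted by mean TPM. Filled points are replicate 1 and open points replicate 2; Snora81 has the widest gap, at 80.2 and 10.5 counts.

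The members with a described link to metabolism that are shorter than 100 bases could not be followed in the gene tables. Snord60 (78 bases) stands at 0 in both libraries. Snord32a, Snord33, Snord34 and Snord35a, which lie in the ribosomal protein gene Rpl13a and are linked to the response to lipotoxic stress, are 70 to 90 bases long and stand at 0, beside 489 and 390 TPM for Rpl13a itself. The 4 members in Gas5 (Snord47, Snord78 and both Snord80 genes) are 66 to 81 bases long and stand at 0, beside 99.4 and 64.5 TPM for Gas5. The 17 Snord116 genes of the imprinted Snhg14 locus, best known from brain, are each 94 bases long with 4 distinct sequences and also stand at 0. Snhg14 itself was at 1.22 and 1.42 TPM.

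The other transcript file, made from the same reads, gave no count to any member. Its estimated counts were 0 for all 141 members in both libraries. The shortest transcript with a count in that file was 266 bases long in both libraries, and none of the 8281 transcripts of up to 238 bases, the length of the longest member, had a count. In the transcript table that belongs to the gene table, 10.7% of transcripts from 120 to under 140 bases had a count in replicate 1. Scarna2, a Cajal body RNA of 414 bases, had 6643 and 5485 counts in the gene table and 1762 and 1475 in the other file. Scarna13 (275 bases) had 933 and 855 counts in the gene table and 0 in the other file.

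**Figure D3:**
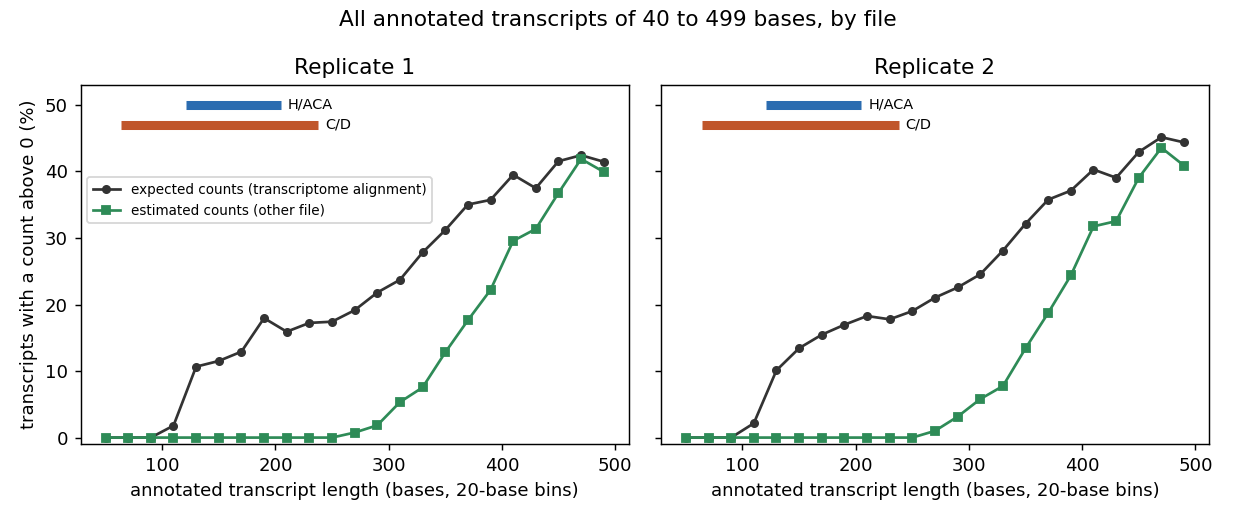
Percentage of annotated transcripts with a count above 0 (vertical axis) in 20-base bins of transcript length (horizontal axis), for the transcript table that belongs to the gene table (circles) and the other transcript file (squares), 1 panel per replicate. The bars at the top span the lengths of C/D members (64 to 238 bases) and H/ACA members (121 to 205 bases), a range in which the other file has no count.

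The sequences of many members are also part of longer transcripts that did have counts there. Where on those transcripts the reads lie was not examined. The whole sequence of 70 members (51 C/D and 19 H/ACA) is held on the same strand by 77 longer transcripts of other genes, of which 56 are annotated as retained introns. For 69 of the 70 these transcripts had counts in both libraries in the other file. Reads from the snoRNA and reads from the unspliced host RNA cannot be told apart in them. A retained-intron transcript of Rps3 (3183 bases), which holds Snord15b, had 1619 and 1088 estimated counts in the other file and 151 and 77.1 expected counts in the transcript table of the gene table, where Snord15b itself had 869 and 593. That of AC121821.1 (708 bases), which holds Snora74a, had 1843 and 1628 against 12.2 and 6.39, and Snora74a itself had 1507 and 1349. A short one of Snhg1 (495 bases), which holds Snord22, had 361 and 370 against 0.09 and 0, and Snord22 itself had 276 and 288. All transcripts that hold Snord22 summed to 667 and 580 estimated counts and to 238 and 171 expected counts. For these 3 members the estimated counts stood on host transcripts alone. More of the expected counts stood on the snoRNA than on the transcripts that hold it, by the narrowest margin for Snord22. Of 17 held members with counts in both libraries, 4 (Snord15b, Snord22, Snora74a and Snora44) had more expected counts than the transcripts that hold them, and 13 had fewer. Snora28, with 3.64 and 1.18 counts, is held by transcripts with 495 and 293. Of the 87 C/D members under 100 bases, 49 are held by such transcripts. A retained-intron transcript of Hspa8 (3158 bases), which holds Snord14c, Snord14d and Snord14e of this heat shock protein gene, had 705 and 136 expected counts.

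Replicate 2 was compared with replicate 1 by an exact binomial test per gene, which compares these libraries by counting error and not any conditions. Genes were called at a 2-fold ratio or more where the p adjusted by Benjamini-Hochberg was under 0.05. Of 14780 tested genes, 1013 (6.85%) were called. Among the members 15 had enough counts to be tested (4 C/D and 11 H/ACA, mean CPM of at least 1), and 1 was called, Snora81. The median log2 ratio of the tested members was 0.18 for C/D (3 higher and 1 lower in replicate 2) and −0.16 for H/ACA (4 higher and 7 lower), against 0.01 over all tested genes. In bulk tissue a difference in the number of cells of a type and a difference in RNA per cell cannot be told apart. The pancreas, liver, cortex and medulla markers above moved between the same libraries. All 7 cortex markers were lower in replicate 2 (median log2 ratio −0.37) and all 5 medulla markers higher (0.52). Of the 4 adipocyte markers 2 were lower and 2 higher, and Ucp1 was called higher (1.37). The part of these markers in the members' ratios was not tested.

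Snora81 had 80.2 counts in replicate 1 and 10.5 in replicate 2, or 28.7 and 3.43 TPM. It was 6.00-fold lower in replicate 2 (exact 95% interval of the count ratio 3.16 to 12.4; log2 ratio −2.58; exact binomial test, adjusted p = 1.36e-10). Snora81 lies in the translation factor gene Eif4a2, whose own log2 ratio was −0.24. Its sequence is also held by a retained-intron transcript of Eif4a2 (1655 bases) with 348 and 215 expected counts, and the deposited posterior SD of the Snora81 count was 5.21 in replicate 1 and 3.98 in replicate 2. With the counts of that transcript added, the log2 ratio was −0.64 (428 and 225 counts), which is below 2-fold. Gm26447, a snoRNA gene in the same host, had 1368 and 770 counts and a log2 ratio of −0.54.

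The other 14 tested members differed by less than 2-fold. The scaled ratio of replicate 2 to replicate 1 was 1.21 for Snora73b (exact 95% interval 1.14 to 1.28), 1.15 for Snora73a (1.07 to 1.23) and 1.09 for Snora74a (1.01 to 1.18). It was 1.27 for Snord22 (1.08 to 1.51) and 1.11 for Snord17 (1.03 to 1.20). These 5 intervals lie above 1 with TMM scaling. With DESeq2 size factors the exact binomial test gave an adjusted p of 0.466 for Snord17, 0.689 for Snora74a, 0.0870 for Snora73a and 0.0712 for Snord22, and 9.52e-05 for Snora73b. With total counts as the scale it was 0.137 for Snord17 and 0.235 for Snora74a. For Snord15b the ratio was 0.833 (0.749 to 0.926) and for Snord15a, from the same host, 1.15 (0.993 to 1.33). Snora23 had a ratio of 0.803 (0.663 to 0.969). With spike-in counts as the scale all 15 tested members were lower in replicate 2, and the median of all tested genes was −0.88. On that scale 7 of the 15 were called, against 37.3% of all tested genes. With a minimum mean CPM of 5, 0 of 8 members were called, against 3.12%, and at a 1.5-fold threshold 1 of 15, against 16.6%. With the longer transcripts that hold a member added to its counts, 7 of 55 were called, against 6.88%, and Snora81 was not among them. Those 7 calls come almost wholly from the counts of the longer transcripts. Of the 14 small ratios, 7 (those above 1) thus changed direction on the spike-in scale and the other 7 kept theirs.

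**Figure D4:**
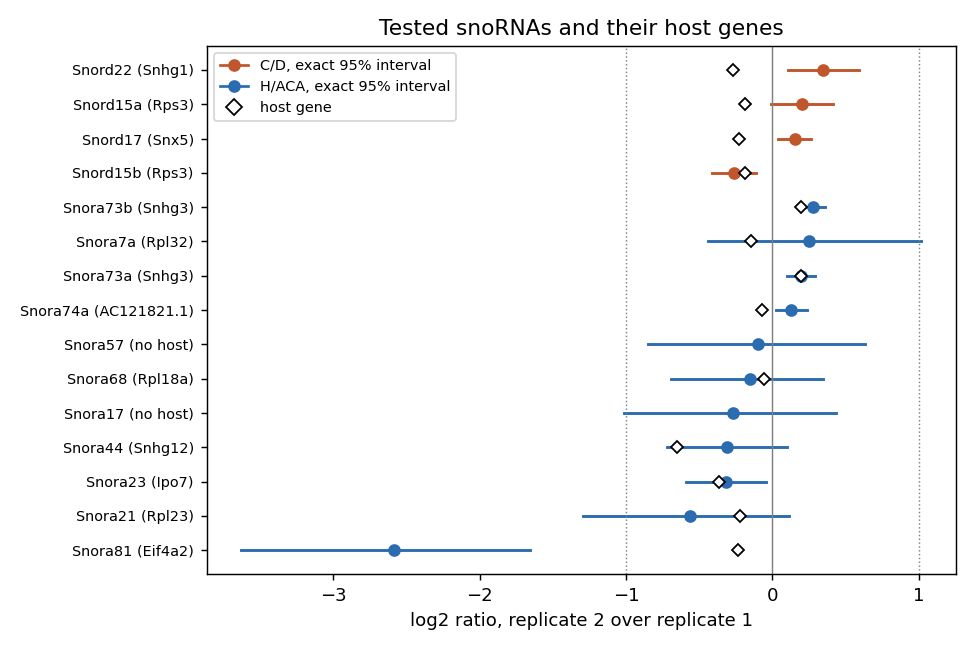
Log2 ratio of replicate 2 over replicate 1 (horizontal axis) for the 15 tested members, with exact 95% intervals from counting error, and for their host genes (open diamonds). Dotted lines mark a 2-fold ratio, and Snora81 at −2.58 is the member beyond it.

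By position, 134 of the 141 members lie inside a gene on the same strand, which is protein-coding for 83 of them (where 2 genes hold a member, as for 11, the one with the higher TPM is taken). The member lies in an intron of all transcripts of its host for 70, coincides with exon sequence of at least 1 host transcript for 56 and overlaps an exon in part for 8. Snord118, Snord13, Snord104, Snora17, Snora57 and both Snora43 genes have no such host. Members stood both above and below their hosts. Of the 30 members with a host and counts in both libraries, 13 had a higher TPM than the host in both libraries and 17 a lower one. All 4 such C/D members were above their host and 9 of 26 H/ACA members were. By CPM per annotated kilobase, without the subtraction of 99 bases and chosen after seeing the data, 2 of 4 C/D members (Snord17 and Snord22) and 7 of 26 H/ACA members were above their host in both libraries, and Snord15a was below Rps3 in both. Snora73b stood at 638 and 575 TPM beside 10.7 and 9.62 for Snhg3, and Snord17 at 267 and 221 beside 28.2 and 20.3 for Snx5, a sorting nexin. Snora61 stood at 13.3 and 10.9 TPM beside 12.9 and 5.98 for Snhg12. By CPM per annotated kilobase Snora61 was below Snhg12 in both libraries, at 3.16 and 3.35 beside 11.3 and 6.91. Snora21 stood at 37.99 and 18.98 TPM beside 278 and 177 for Rpl23, a ribosomal protein gene. The hosts of the 13 tested members that have one had log2 ratios from −0.65 to 0.20. No host of a tested member was called (0 of 11), against 6.85% of all tested genes and 3.12% of those with a mean CPM of at least 5. At such shares 0 of 11 does not set the hosts apart.

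The proteins of the particles were present in both libraries. Each of the 8 core protein genes reached 1 TPM in both, and none was called, against 6.85% of all tested genes. Fbl, the C/D methyltransferase, was at 40.4 and 21.6 TPM, Nop56 at 39.7 and 21.4, Nop58 at 38.2 and 20.6 and Snu13, which binds the C/D box fold, at 28.4 and 15.4. All 4 were lower in replicate 2, with a median log2 ratio of −0.50 on TMM-scaled counts. On the spike-in scale all 4 were called (median −1.40), against 37.3% of all tested genes, and at a 1.5-fold threshold 1 was, against 16.6%. The 7 cortex markers were also all lower in replicate 2 (median −0.37), and their part in this was not tested. Dkc1, the pseudouridine synthase, was at 12.04 and 9.47 TPM, Nop10 at 33.8 and 22.3, Nhp2 at 18.6 and 13.3 and Gar1 at 16.5 and 12.5, with a median log2 ratio of −0.12. These 4 were lower in replicate 2 as well, as were 48.9% of all tested genes. The exact intervals of the count ratio included 1 for Gar1 (0.819 to 1.16) and Nhp2 (0.845 to 1.08). They lay below 1 for Dkc1 (0.795 to 0.996) and Nop10 (0.811 to 0.967). Both sets of 4 were also lower with the other scalings, the edgeR exact test, the DESeq2 dispersion and the other transcript file. The other filters, the 1.5-fold threshold and the added transcripts left both medians unchanged, so they could not test the direction. All 9 assembly factor genes were tested and none was called (median −0.10), against 6.85% of all tested genes. Of 14 genes for processing and decay, among them the exosome subunits and the debranching enzyme Dbr1, 13 were tested. None was called (median −0.08), against the same 6.85%, and Exosc6 is listed at 0. Of 18 genes found from a list of mainly non-coding hosts, 16 were tested and none was called (median −0.04), again against 6.85%. Of these 16, 9 were lower and 7 higher in replicate 2. Their log2 ratios ran from −0.68 for Snhg15 to 0.99 for Snhg11, which is just under 2-fold. The annotation gives Snhg11, Snrpn and Snurf among them as protein-coding.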

How the data were processed

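Per the file headers, 3 tables were deposited for each library, on the mm10 build with GENCODE M21. The first, by gene, and the second, by transcript, give expected counts, which the authors computed from reads aligned to the transcriptome (RSEM column layout). The authors scaled TPM over all entries. The posterior SD of a count and the TPM bounds are deposited scores of the same table. The third table, by transcript, gives estimated counts made by the authors from the reads themselves (kallisto column layout). Which programs and versions were used is not given in the sources used here.

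Members were taken by symbol, and all had 1 transcript in the annotation. Members and lists were chosen with earlier results of these data known. Expected counts were rounded, and genes averaging at least 1 CPM were compared between libraries by the exact binomial test, two-sided, with TMM library sizes (edgeR 4.0.16, R 4.3.3; factors 1.02 and 0.982), Benjamini-Hochberg adjustment over 14780 genes and 0.5 added for log2 ratios. Intervals of count ratios are exact 95% limits, and the floor is 3 counts. Entries that name no gene (spike-ins and tRNA) held 0.843% and 1.50% of counts and were left out. The test was checked on simulated counts. Named members are the 8 with the most counts and the 5 with the highest TPM per class, called members, those with a role in rRNA cleavage, a described metabolic link or an imprinted locus, and those in Gas5; others were named after their values were seen. Alternatives used other scalings (DESeq2 1.42.0), filters, thresholds and files.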

Additional observations from a re-analysis of the deposited data

How the results depend on the processing

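Snora81 remained the 1 member called, of 15 tested (42 with no filter), under the next settings, here with the share of all tested genes called. They were DESeq2 size factors (6.57%), total counts (6.68%), TMM over protein-coding genes (6.96%) and no filter (7.92%). The others were a 1.5-fold threshold (16.6%), which keeps every 2-fold call, and the edgeR exact test at a coefficient of variation of 0.1 (6.63%). With spike-in scaling 7 of 15 members were called, against 37.3% of all genes, with a minimum of 5 CPM 0 of 8 were called, against 3.12%, with the DESeq2 dispersion 0 of 15 (no gene at all was called, and Snora81 had an adjusted p of 1.00), and in the other transcript file 0, since no member had counts. With counts of the longer transcripts that hold a member added, a setting chosen after seeing the data, 7 of 55 tested members were called, against 6.88% of all genes. These were Snord14c, Snord14d and Snord14e, which share a transcript of Hspa8, and Snord19, Snord88a, Snord99 and Snora33. The Snord genes among them had 0 counts of their own in both libraries. Snora33 had 2.31 and 1.54 counts, beside 132 and 44.8 on the transcripts that hold it. The calls are thus of the longer transcripts and not of the snoRNAs. Spike-in scaling reversed the log2 ratios of Snord17 (−0.74), Snord15a (−0.69), Snord22 (−0.55), Snora73b (−0.62), Snora73a (−0.70), Snora74a (−0.76) and Snora7a (−0.64), and the added transcripts reversed Snora68 (0.23). The ratio of summed H/ACA to C/D levels was 2.15 per annotated kilobase and 1.63 to 1.67 leaving out 1 replicate each. C/D members under 100 bases add 0 to these sums, which leave out snoRNA genes with other names. At 1 TPM in a single library 7 to 8 C/D and 28 to 30 H/ACA members were present, and 0 of either class in the other file. Members with a count numbered 38 to 39 in single libraries and 23 at 10 counts. Of all genes of the snoRNA biotype, 90 of 1507 reached 1 TPM in both libraries. Few counts limit most members: 1 count is worth 5.66 TPM for Snord13 and 0.204 for Snord17 in replicate 1. No paired analysis was possible because the series has 1 group.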

Other observations

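Some genes of the snoRNA biotype with other names had more counts than any member in both libraries. Scarna10, a Cajal body RNA, had 7225 and 4912 expected counts in replicates 1 and 2 (905 and 560 TPM), and Gm22988 had 3020 and 2592 (1900 and 1483 TPM). Scarna10 is 325 bases long and had 1 and 4 estimated counts in the other transcript file. Of 9 Cajal body RNAs, which guide modification of spliceosomal RNAs, 4 were tested between the libraries and 0 called, against 6.85% of all tested genes. Scarna13 and Scarna6 had 933 and 861 counts in replicate 1 and 855 and 670 in replicate 2. The U3 genes Rnu3b1 to Rnu3b4 (215 bases), the RNA of the first cleavages of the rRNA precursor, each carry the same 1791 and 2082 expected counts. A second gene under each of these symbols (216 bases) carries 443 and 702. The log2 ratio of replicate 2 over replicate 1 was 0.51 for the first set and 0.95 for the second, and since reads are shared among near-identical copies, values of a single copy are uncertain.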
